A study of Mus musculus with 32 samples.

Results

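Kupffer cells are the macrophages that live in the sinusoids of the liver, and 10 genes by which resident Kupffer cells are commonly recognised are described here: Clec4f, Vsig4, Timd4, Marco, Cd5l, C1qa, C1qb, C1qc, Cd163 and Csf1r. They were taken by gene symbol from a table of 54532 genes. All 10 were found and all 10 passed the filter on low counts, and the lowest count of any of them in any library was 99. The libraries hold polyadenylated RNA from whole livers of wild-type mice. The mice had eaten normal chow or cdHFD, a choline-free, low-methionine, high-fat diet used as a model of steatohepatitis, for 2 weeks, and livers were taken at zeitgeber times (ZT) 2, 8, 14 and 20, which are 6 h apart. Each of the 8 groups of diet and time held 4 libraries, 2 from each sex, but for the cdHFD group of ZT14, which held 3 males and 1 female. The study is titled as one of daily liver rhythms in non-alcoholic steatohepatitis. Nothing in the labels ties each library to an animal of its own, and a p-value here speaks of the spread among the libraries alone. The sources used here do not give strain, age or light schedule.

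Kupffer cells stand in the blood stream of the sinusoids, where they take up bacteria, dying cells, lipoprotein and haemoglobin, and they depend on signals through the receptor Csf1r. Clec4f, a lectin, is largely restricted to Kupffer cells in the mouse. Vsig4 is a complement receptor and Timd4 a receptor for phosphatidylserine on dying cells. Marco, a scavenger receptor, binds bacteria and particles, and Cd5l is a secreted protein of macrophages also called AIM. C1qa, C1qb and C1qc encode the chains of C1q, which starts the classical complement pathway, and Cd163 is the receptor for haemoglobin bound to haptoglobin. The C1q genes, Csf1r, Cd163 and Marco are also made by other macrophages, including cells that derive from blood monocytes.

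Total counts per library ran from 29.5 M to 54.6 M, with a median of 37.2 M. Levels are given as CPM, counts per 1000000 counts of a library whose size was scaled with its TMM factor. The factors averaged 0.821 ± 0.0440 in chow and 1.22 ± 0.0823 in cdHFD (SD, n = 16). Without those factors the median of all genes moved from -0.02 to 0.56 on the log2 scale of cdHFD over chow. Markers of hepatocytes summed to between 114127 and 181567 CPM in the chow livers and to between 41344 and 73686 CPM in the cdHFD livers. One library stood apart: chow ZT8 replicate 1, a male, had the lowest level of all 16 chow libraries for 10 of the 10 genes. It was also the lowest chow library in the summed level of 8 of 18 companion lists, among them macrophage-wide genes (137 CPM against 181 to 310 CPM in the other chow males) and markers of sinusoidal endothelium (137 against 150 to 287 CPM), while its hepatocyte markers ranked 5 of 16 from the lowest. The 8 lists are not independent. Those of lipid-associated macrophages and of LXR targets both hold Apoe, and summed to 33517 and 33512 CPM in this library. In sum, a list of other Kupffer cell genes was not low in this library, with 1044 CPM and rank 14 of 16 from the lowest. That sum does not follow most of its genes. Its median was 897 CPM in chow and 813 CPM in cdHFD, although 11 of the 15 genes were called higher in cdHFD. It therefore does not tell how most of these genes stood in this library. Values without it are given for the C1q genes, for Cd163 over time, and for the sex difference in chow and its change with diet. The correlations of residuals below are given only with it.

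Together the 10 genes made up 0.0387% ± 0.0142 of a chow library and 0.195% ± 0.0291 of a cdHFD library (SD, n = 16). This share rests on total counts alone; with TMM scaling the summed level of the 10 genes had a median of 481 CPM in chow and 1625 CPM in cdHFD. By either measure the diets did not overlap: the highest chow library held 0.0621% and 711 CPM, and the lowest cdHFD library 0.146% and 1166 CPM. With levels averaged over the 4 times, 9 of the 10 genes were higher in cdHFD by edgeR's quasi-likelihood test at an adjusted p below 0.05, where 31.0% of all genes tested were called higher. Their median log2 difference was 1.68, against -0.02 over all 17853 genes. Cd163 was the exception. Because whole liver was measured, more Kupffer cells, more RNA per cell and RNA from other macrophages cannot be told apart.

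**Figure D1:**
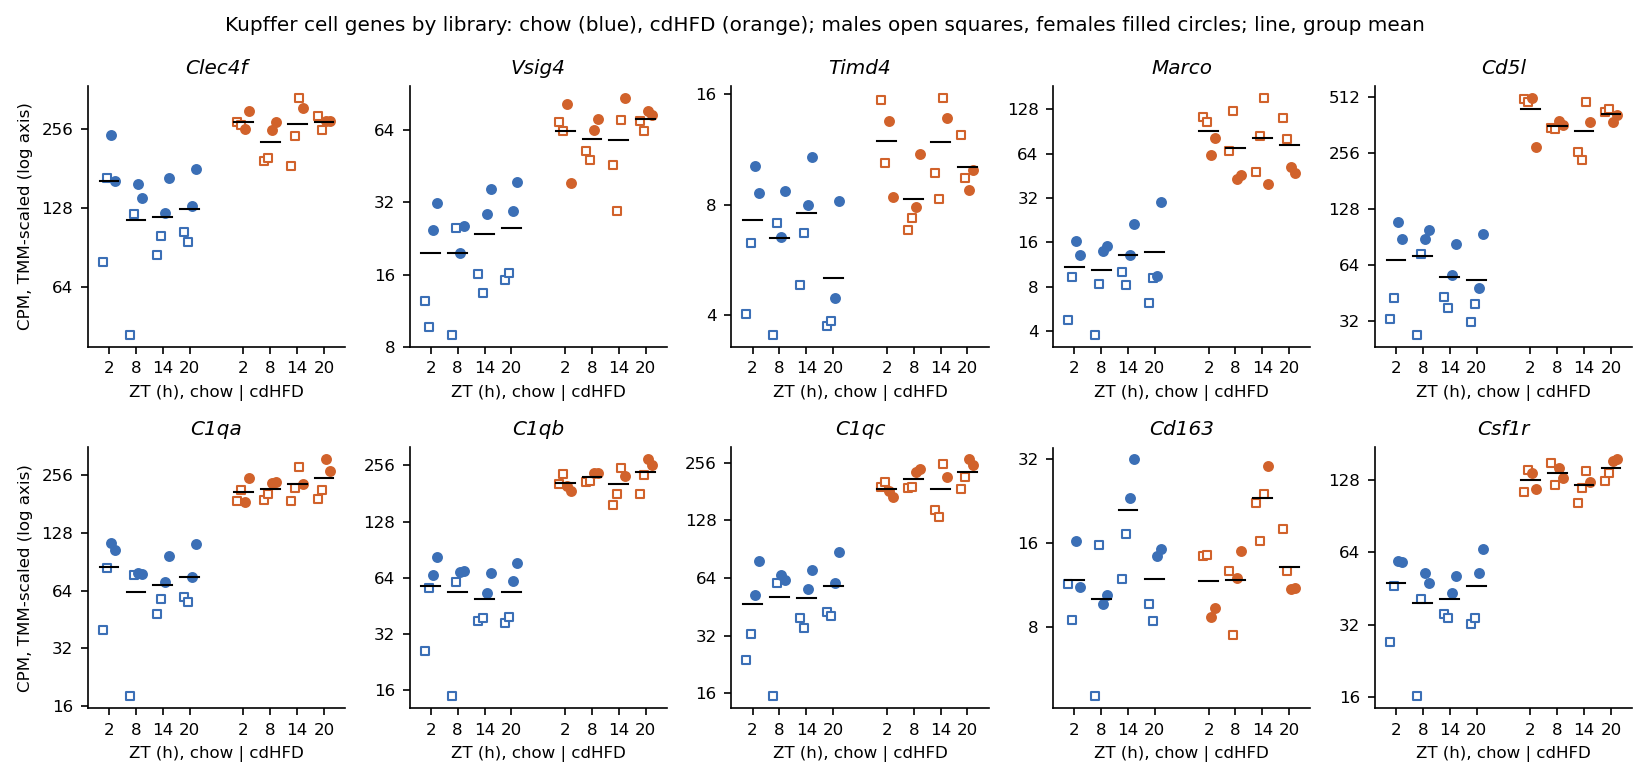
Level of each gene in each library, in TMM-scaled CPM on a log axis, against zeitgeber time in chow (blue) and cdHFD (orange), with males as open squares, females as filled circles and group means as lines. For Marco, Cd5l, the C1q genes and Csf1r all 16 cdHFD libraries lie above all 16 chow libraries, and in chow most females lie above most males.

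With both sexes in the test, Marco and Cd5l had the largest differences of the 10 genes. In males Marco led with 3.75 on the log2 scale, followed by Cd5l with 3.27. In females Cd5l led with 2.20, and Marco, at 1.64, stood below C1qb (1.74) and C1qc (1.70). Marco ran from 3.77 to 30.3 CPM in chow with a median of 9.75, and from 39.9 to 153 CPM in cdHFD with a median of 73.7. The diets did not overlap, and Marco was 6.75-fold higher in cdHFD (log2 2.75 ± 0.27, SE; adjusted p = 7.15e-09). Cd5l ran from 26.9 to 109 CPM in chow, with a median of 52.6, and from 236 to 510 CPM in cdHFD, with a median of 381. It was 6.82-fold higher (log2 2.77 ± 0.18; adjusted p = 2.15e-14), again with no overlap. A gap of this kind, every cdHFD library above every chow library, was shown by 6 of the 10 genes and by 5.86% of all genes tested.

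Marco and Cd5l rose most with both sexes in the test, and Cd163, which did not pass it, serves for comparison. The 250 bases before the start site of each are printed. They come from the RefSeq promoter table on build GRCm38.p6, 5′ to 3′ on the gene's strand, at chr1:120505025-120505274 (minus strand) for Marco, chr3:87357631-87357880 (plus) for Cd5l and chr6:124304401-124304650 (plus) for Cd163. Capitals mark GAGGAA, the core bound by PU.1 (Spi1), and TGCTGA, the core bound by MAF factors, on either strand.
Marco: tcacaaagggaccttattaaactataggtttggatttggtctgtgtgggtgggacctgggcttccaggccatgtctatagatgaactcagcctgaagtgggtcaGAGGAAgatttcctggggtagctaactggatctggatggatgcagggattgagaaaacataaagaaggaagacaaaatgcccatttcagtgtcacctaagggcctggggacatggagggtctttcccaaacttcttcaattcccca
Cd5l: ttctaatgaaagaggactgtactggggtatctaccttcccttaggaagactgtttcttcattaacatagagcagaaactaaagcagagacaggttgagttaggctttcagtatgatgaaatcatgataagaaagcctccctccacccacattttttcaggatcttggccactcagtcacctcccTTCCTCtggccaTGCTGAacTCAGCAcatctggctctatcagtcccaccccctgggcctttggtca
Cd163: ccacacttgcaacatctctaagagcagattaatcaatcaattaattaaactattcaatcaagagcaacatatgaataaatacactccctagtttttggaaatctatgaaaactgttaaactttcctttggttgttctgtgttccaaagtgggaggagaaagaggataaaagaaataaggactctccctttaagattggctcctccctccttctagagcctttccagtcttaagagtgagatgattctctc

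Cd5l held 1 GAGGAA and 2 TGCTGA matches, first bases at -66, -54 and -46 from its start, Marco held 1 GAGGAA at -146, and Cd163 held neither. Windows of 300 bases, from 250 before to 50 after the start, were in the table for 8 of the 10 genes. GAGGAA lay in 5 of the 8 and in 28.3% of all 32851 windows of that length. TGCTGA also lay in 5 of the 8, and in 19.5% of all windows. CACGTG, the E-box bound by the clock factors CLOCK and BMAL1, was in none of the 8 and in 7.15% of all windows. The direct repeat bound by LXR (DR4) was in none of the 8 and in 0.0152% of all. Both strands were searched, no matches in the 8 windows overlapped, and a match describes the letters of these windows alone.

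All 3 C1q genes were higher in cdHFD. They lie in a cluster of 18.7 kb on chromosome 4 (GRCm38, 136880129 to 136898803), all on the minus strand, with C1qb first, C1qc next and C1qa last in genome order. C1qb ran from 14.8 to 82.4 CPM in chow and from 156 to 275 CPM in cdHFD, with medians of 58.9 and 217, and was 4.26-fold higher (log2 2.09 ± 0.16; adjusted p = 1.64e-13). C1qc ran from 15.4 to 87.9 CPM in chow and from 134 to 267 CPM in cdHFD, with medians of 54.1 and 198 CPM (log2 2.08 ± 0.16; adjusted p = 2.11e-13). C1qa ran from 17.9 to 114 CPM and from 186 to 311 CPM, with medians of 76.2 and 218, and its difference was 1.70 ± 0.16 on the log2 scale (adjusted p = 6.14e-12). No diet range overlapped for any of the 3 chains. The lowest chow value of each was that of chow ZT8 replicate 1, and without that library the differences were 2.01, 2.00 and 1.62.

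C1q protein holds the 3 chains in equal number. Per kilobase of exon, C1qa stood at 1.44 ± 0.175 times C1qb in chow (SD, n = 16; range 1.18 to 1.79) and at 1.10 ± 0.129 times in cdHFD (0.960 to 1.39). The log2 ratio of C1qa to C1qb moved by -0.38 ± 0.06 from chow to cdHFD (SE; two-sided permutation test, adjusted p over the 3 chain pairs = 6e-05), and that of C1qa to C1qc by -0.36 ± 0.10 (adjusted p = 0.000615). C1qc to C1qb moved by -0.03 ± 0.07 (permutation, adjusted p = 0.72). These pairs were tested after their values were seen. Start-site sequences of the neighbours C1qb, at chr4:136886201-136886450, and C1qc, at chr4:136892915-136893164, both on the minus strand and marked as above, are shown because their differences, 2.09 and 2.08, were close.
C1qb: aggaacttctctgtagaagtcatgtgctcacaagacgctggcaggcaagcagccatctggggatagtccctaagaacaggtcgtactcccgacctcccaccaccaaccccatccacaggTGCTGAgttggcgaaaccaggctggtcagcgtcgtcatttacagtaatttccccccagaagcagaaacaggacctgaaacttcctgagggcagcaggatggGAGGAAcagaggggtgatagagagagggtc
C1qc: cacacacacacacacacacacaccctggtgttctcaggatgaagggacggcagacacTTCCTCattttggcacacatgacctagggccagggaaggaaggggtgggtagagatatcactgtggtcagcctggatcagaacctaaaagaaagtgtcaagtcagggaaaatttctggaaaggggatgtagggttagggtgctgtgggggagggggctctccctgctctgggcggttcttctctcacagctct

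Each held 1 GAGGAA, at -30 from the start in C1qb and at -193 in C1qc, and C1qb alone of the pair held a TGCTGA. These distances count from the RefSeq start. In GENCODE the gene C1qc reaches to 136893065, so its printed window lies partly inside that gene.

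Csf1r, the growth factor receptor on which macrophages depend, ran from 16.1 to 66.2 CPM in chow, with a median of 44.8, and from 103 to 155 CPM in cdHFD, with a median of 133. Its difference was 3.17-fold (log2 1.66 ± 0.12; adjusted p = 6.91e-14), and every cdHFD library lay above every chow library. Csf1r lies on chromosome 18 (61100598 to 61132149, plus strand), and 873 of its 5774 exonic bases overlap Hmgxb3 on the other strand, which these unstranded libraries cannot separate. The ligands of Csf1r were also called higher: Csf1 went from 18.7 ± 5.67 to 41.7 ± 6.56 CPM (SD, n = 16; adjusted p = 3.63e-14) and Il34 from 3.52 ± 1.27 to 6.85 ± 1.58 CPM (adjusted p = 1.73e-09). In all, 10 of 10 genes of a list of Csf1r ligands and signalling partners were called higher, from 0.27 for the adaptor Grb2 to 2.52 for the transcription factor Spi1.

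Clec4f (chromosome 6, 83644542 to 83656187), Vsig4 (X, 96247203 to 96293438) and Timd4 (11, 46810800 to 46844332), by which resident Kupffer cells are most often told from other macrophages, had smaller differences than Marco and Cd5l. Vsig4 ran from 8.95 to 39.1 CPM in chow and from 29.5 to 87.4 CPM in cdHFD, with medians of 22.1 and 66.7, and 14 of 16 cdHFD libraries lay above the highest chow library (log2 1.64 ± 0.16; adjusted p = 1.72e-10). Clec4f ran from 41.8 to 244 CPM in chow and from 186 to 337 CPM in cdHFD, with medians of 126 and 269. The diets overlapped, with 12 of 16 cdHFD libraries above the highest chow library, and the difference was 2.11-fold (log2 1.08 ± 0.14; adjusted p = 1.26e-08). Timd4 ran from 3.52 to 10.8 CPM in chow and from 6.81 to 15.7 CPM in cdHFD, with medians of 6.61 and 9.86. Only 6 of 16 cdHFD libraries exceeded the highest chow library, and the difference was 1.67-fold (log2 0.74 ± 0.14; adjusted p = 2.24e-05).

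Cd163, the haemoglobin and haptoglobin receptor, ran from 4.51 to 32 CPM in chow with a median of 11.7, and from 7.48 to 30.3 CPM in cdHFD with a median of 13.6. The diets overlapped almost fully, and no cdHFD library lay above the highest chow library. Its log2 difference was 0.16 ± 0.16 (adjusted p = 0.368). Scaled by total counts alone, Cd163 was called higher with 0.73 (adjusted p = 9.48e-05) and all 10 genes passed the test, in a setting where 69.2% of all genes were called higher. Of 9 other genes that handle haem 7 were higher and 0 lower, with a median of 0.52, and under total counts alone all 9 were higher. The 2 that did not pass were Blvrb (-0.14; adjusted p = 0.224) and Ftl1 (-0.04; adjusted p = 0.729). Hmox1, which breaks haem down, went from 21.9 ± 7.07 to 127 ± 22.7 CPM (SD, n = 16; log2 2.57; adjusted p = 1.03e-16), and Hp, the haptoglobin that Cd163 binds, was higher by 1.08 (adjusted p = 7.36e-13).

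The same picture was seen at each collection time. At ZT2, ZT14 and ZT20 the 9 genes other than Cd163 were called higher, where 21.0%, 19.8% and 19.8% of all genes were, and at ZT8 the count was 8, where 20.6% were. Timd4 was the gene that missed at ZT8, with 3.52, 7.12, 6.53 and 8.72 CPM in the 4 chow libraries and 6.81, 7.36, 7.89 and 11 CPM in the 4 cdHFD libraries (log2 0.36 ± 0.28; adjusted p = 0.303). Scaled by total counts alone, Timd4 was called at ZT8 with 0.98 (adjusted p = 0.00262). At ZT2, Clec4f lost its call without chow ZT2 replicate 1 (0.61; adjusted p = 0.0537) and Timd4 lost its call without chow ZT2 replicate 1 or cdHFD ZT2 replicate 1 (0.61 and 0.55). At ZT14, Timd4 lost it without any 1 of 3 libraries (0.56 to 0.75).

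**Figure D2:**
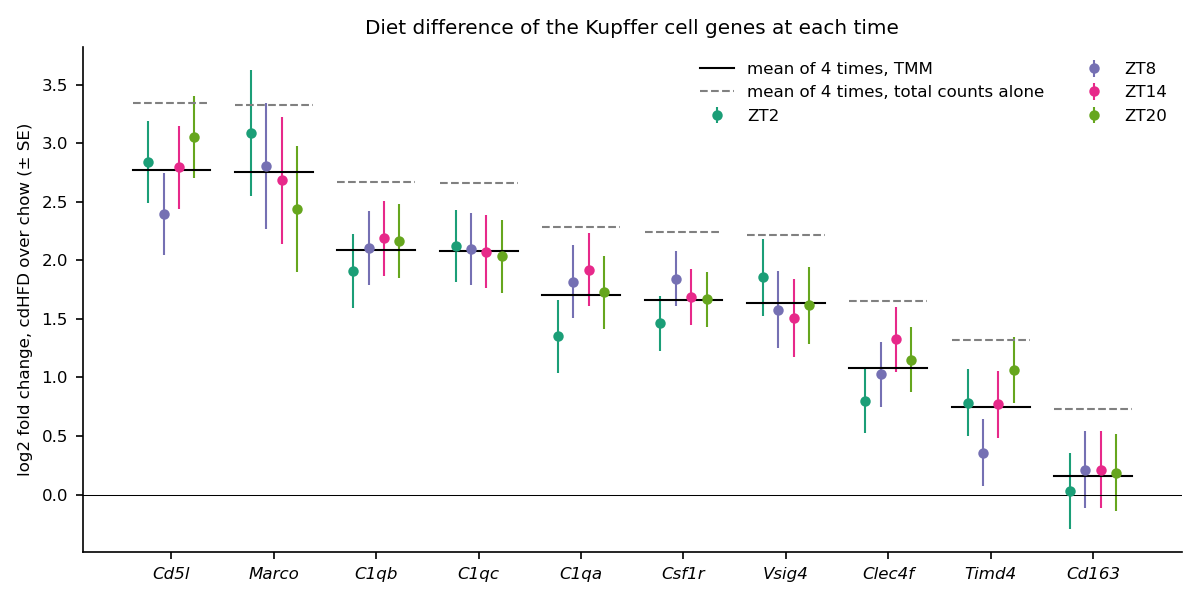
Log2 fold change of cdHFD over chow at each time with its SE (points), its mean over the 4 times with TMM scaling (solid line) and with total counts alone (dashed line), for the 10 genes ordered by that mean. Cd5l and Marco lead with 2.77 and 2.75, Timd4 stands at 0.74, and Cd163 at 0.16 is the gene that moves past the threshold when TMM factors are left out.

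None of the 10 genes had a diet difference that differed between the times (edgeR, lowest adjusted p = 0.546), where 5.77% of all genes did, and 0 of 10 did at an unadjusted p under 0.05 or by DESeq2. A 24 h rhythm was called for 0 of 10 genes in chow, where 17.7% of genes were rhythmic, and for 0 of 10 in cdHFD, where 2.47% were. At an unadjusted p under 0.05 the count was 1 in each diet, which was Cd163, and DESeq2 called 0 in each. A difference in rhythm between the diets was called for none (lowest adjusted p = 0.569, with 0 at an unadjusted p under 0.05 and 0 by DESeq2), against 3.64% of all genes. Fitted amplitudes ran from 0.11 to 0.42 on the log2 scale in chow, with a median of 0.23 beside 0.27 over all genes, and from 0.04 to 0.53 in cdHFD, with a median of 0.15 beside 0.18.

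Cd163 was highest at ZT14 in both diets. In chow its 4 libraries held 11.9, 17.3, 23.2 and 32 CPM at ZT14 and 4.51, 15.7, 9.72 and 10.4 CPM at ZT8. In cdHFD they held 22.3, 16.3, 24 and 30.3 CPM at ZT14 and 12.7, 7.48, 12 and 15 CPM at ZT8. The ZT14 libraries lay above all ZT8 libraries in cdHFD, and overlapped with them in chow. Any difference between the 4 times was called for Cd163 in chow (adjusted p = 0.0283), where 32.1% of all genes passed the same test, and missed in cdHFD (adjusted p = 0.0547), where 5.43% passed; without chow ZT8 replicate 1 it passed in both diets. Its fitted peak was at 15.5 ± 1.7 h in chow and 14.6 ± 1.3 h in cdHFD (SE), with amplitudes of 0.42 ± 0.19 and 0.53 ± 0.19, and the 24 h test gave adjusted p = 0.137 and 0.205. Without the filter on low counts that test called Cd163 in both diets (0.00182 and 8.77e-05). The other 9 genes had an adjusted p above that of Cd163 for the 24 h test in both diets.

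In chow the level of these genes differed by sex. Females were higher than males for 9 of the 10 genes, where 6.12% of all genes were called higher in females, and the median difference was 0.77 on the log2 scale, against 0.02 over all genes. Marco ran from 3.77 to 10.05 CPM in the 8 chow males with a median of 8.30, and from 9.44 to 30.3 CPM in the 8 chow females with a median of 14.6 (log2 1.15 ± 0.25; adjusted p = 0.00101). Cd5l ran from 26.9 to 73.4 CPM in chow males and from 48.5 to 109 CPM in chow females, with medians of 38.6 and 88.6 (1.02 ± 0.19; adjusted p = 0.000194). Vsig4 ran from 8.95 to 24.9 CPM in males and from 19.7 to 39.1 CPM in females, with medians of 14.3 and 28.9 (1.01 ± 0.21; adjusted p = 0.000604). No gene had sexes without overlap, where 0.756% of all genes had every chow female above every chow male, although 7 of the 8 chow females lay above the highest chow male for Marco, C1qb and Csf1r.

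The other genes were higher in chow females by 0.90 ± 0.19 for C1qc, 0.81 ± 0.20 for C1qb, 0.73 ± 0.21 for C1qa, 0.72 ± 0.18 for Clec4f, 0.71 ± 0.18 for Timd4 and 0.69 ± 0.14 for Csf1r. Their adjusted p ran from 0.000506 for Csf1r to 0.00808 for C1qa. Cd163 missed the threshold, with 0.53 ± 0.22 (adjusted p = 0.109), and was called without chow ZT8 replicate 2 (0.78; adjusted p = 0.0026). Leaving out chow ZT8 replicate 1, the low male, kept the same 9 genes past the threshold, from 0.59 for Csf1r to 1.06 for Marco.

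In cdHFD no sex difference passed the test for 9 of the 10 genes, with values from -0.07 for Cd163 to 0.31 for Vsig4. Marco was called lower in females (-0.96 ± 0.25; adjusted p = 0.0382), in a diet where 0.941% of all genes were called in either direction and 0.426% lower in females. It ran from 48.0 to 153 CPM in the 9 cdHFD males, with a median of 105, and from 39.9 to 81.9 CPM in the 7 cdHFD females, with a median of 47.2. The call was lost without any 1 of 11 of the cdHFD libraries, with values from -1.01 to -0.84.

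The change of the sex difference from chow to cdHFD was tested as a term of its own. It was called for Marco (-2.11 ± 0.35; adjusted p = 0.000211) and Cd5l (-1.08 ± 0.28; adjusted p = 0.0178), 2 of 10 genes where 1.85% of all genes were called, and 1.05% called below 0. The same term states that diet moved these genes more in males: Marco by 3.75 ± 0.24 in males and 1.64 ± 0.26 in females, and Cd5l by 3.27 ± 0.19 and 2.20 ± 0.20. All 10 genes had a change below 0, from -0.50 for C1qa to -2.11 for Marco, with a median of -0.66 against -0.01 over all genes. Without chow ZT8 replicate 2, the highest chow male for Cd5l, Vsig4, Timd4, C1qb and C1qc, 6 genes passed: Marco, Cd5l, Vsig4, C1qb, C1qc and Csf1r. The same 6 passed without the filter on low counts. Without chow ZT8 replicate 1 the genes called were Marco (-2.02) and Cd5l (-0.98).

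Marco reversed its order by sex at each time. At ZT2 the chow males held 4.77 and 9.39 CPM and the chow females 16.5 and 13.1 CPM, while the cdHFD males held 114 and 105 CPM and the cdHFD females 62.5 and 81.9 CPM. At ZT8 the values were 3.77 and 8.31 CPM in chow males, 14.1 and 15.2 CPM in chow females, 66.5 and 124 CPM in cdHFD males and 43.3 and 46.0 CPM in cdHFD females. Within each of the 4 times, both diets taken apart, the sexes did not overlap: each female was above each male in chow and below each male in cdHFD. These are the values behind the called change and give it no separate support. Most groups held 2 libraries of each sex, and how many of all genes show such gaps was not counted. At ZT20 the gap in chow was narrow, with 9.25 CPM in the higher male and 9.44 CPM in the lower female, and at ZT14 in cdHFD a single female, with 39.9 CPM, stood below 3 males with 48.0, 84.3 and 153 CPM.

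**Figure D3:**
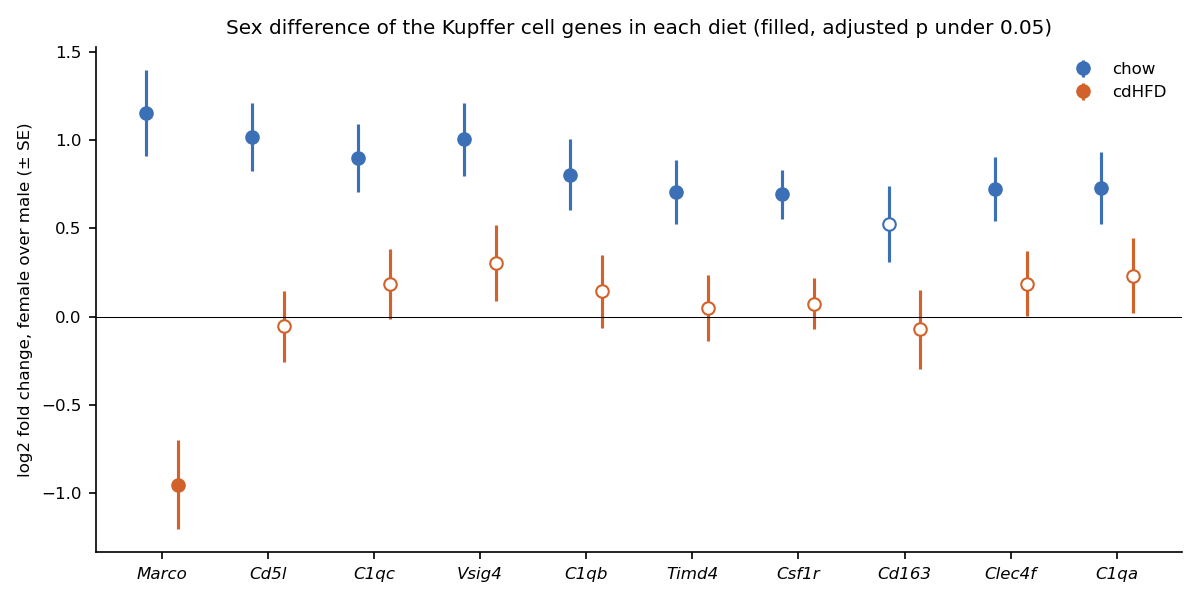
Log2 fold change of female over male with its SE for the 10 genes, in chow (blue) and cdHFD (orange), filled where the adjusted p is below 0.05 and ordered by the change between the diets. In chow all 10 values lie above 0 and 9 are filled, and in cdHFD Marco, at -0.96, is the filled value.

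By diet within each sex, 9 genes were called higher in males, where 26.6% of all genes were, and 8 in females, where 24% were. Timd4 was the gene called in males (1.06 ± 0.18; adjusted p = 6.24e-06) and not in females (0.40 ± 0.19; adjusted p = 0.0661), but the difference between the sexes in its diet effect did not pass (-0.66 ± 0.26; adjusted p = 0.227). Cd163 passed in neither sex, with 0.44 ± 0.21 in males and -0.16 ± 0.23 in females.

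Some companion lists moved with sex in chow as well, where 6.12% of all genes were called higher in females. Of 15 macrophage-wide genes 12 were higher in chow females and 0 of 15 differed in cdHFD. Their summed level ran from 137 to 310 CPM in chow males and from 265 to 381 CPM in chow females. Without chow ZT8 replicate 1 the lowest chow male was at 181 CPM. Of 15 other Kupffer cell genes 7 were higher and 1 lower in chow females. Their summed level, which does not follow most of the list, had a median of 897 CPM in chow males and 895 CPM in chow females. Of 13 transcription regulators of Kupffer cells 1 was higher and 0 lower. Recruited monocyte markers had 2 of 8 higher in chow females (summed level 7.75 to 17.0 CPM in males, 15.8 to 22.1 CPM in females), sinusoidal endothelium markers 0 of 8 (137 to 287 CPM and 164 to 269 CPM) and hepatocyte markers 1 of 6. The part of these cells in the sex difference was not tested.

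Within a library, the ratio of one gene to another needs no scaling, and it shows that the 10 genes did not move by one common factor. Taken to Csf1r, the log2 ratio of counts was higher in cdHFD for Marco by 1.10 ± 0.19 (SE, n = 16 per diet), for Cd5l by 1.09 ± 0.12, for C1qb by 0.45 ± 0.06 and for C1qc by 0.42 ± 0.09. It was lower for Clec4f (-0.58 ± 0.08), Timd4 (-0.94 ± 0.14) and Cd163 (-1.5 ± 0.21). Two-sided permutation tests gave these 7 an adjusted p from 2.71e-05 to 6.33e-05 over the 19 ratios tested, and a raw p of 1e-05 is the smallest that 100000 resamples can give. Vsig4 (-0.06 ± 0.14; permutation, adjusted p = 0.742) and C1qa (0.06 ± 0.07; adjusted p = 0.477) did not pass. All ratio tests took the sexes together. In males the ratio of Marco to Csf1r ran from -2.50 to -1.81 in chow and from -1.17 to 0.14 in cdHFD. In females it ran from -2.47 to -1.13 in chow and from -1.72 to -0.52 in cdHFD, so the diets overlapped.

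Taken to Adgre1, the gene of the macrophage marker F4/80, 6 of 10 ratios passed. Those of Clec4f (-0.96 ± 0.22), Vsig4 (-0.44 ± 0.11), Timd4 (-1.32 ± 0.21) and Cd163 (-1.88 ± 0.27) were lower in cdHFD, and those of Marco (0.73 ± 0.24) and Cd5l (0.72 ± 0.15) were higher (permutation, adjusted p from 2.71e-05 to 0.00763). The C1q genes did not pass, with -0.31 for C1qa, 0.07 for C1qb and 0.05 for C1qc, nor did Csf1r, with -0.38 (permutation, adjusted p = 0.0694). Relative to both references, then, Marco and Cd5l were higher, and Clec4f, Timd4 and Cd163 lower.

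**Figure D4:**
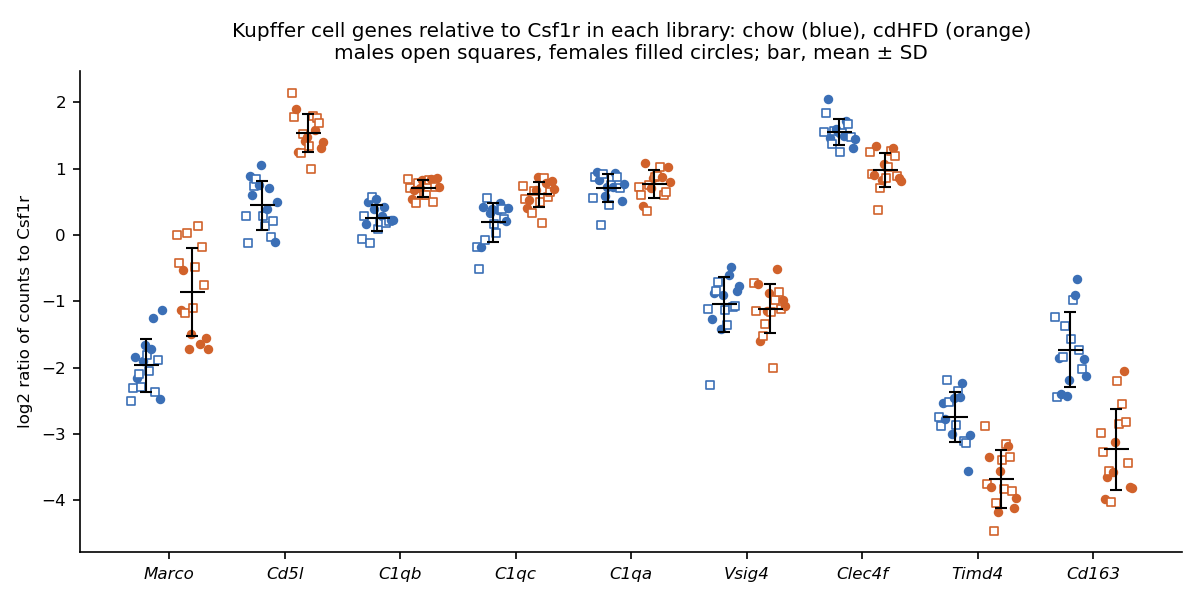
Log2 ratio of the counts of each gene to those of Csf1r in each library, in chow (blue) and cdHFD (orange), with males as open squares, females as filled circles and mean ± SD as bars. The counts are not divided by gene length, so a shift between diets can be read within a gene and not a level between genes: Marco and Cd5l move up by 1.10 and 1.09, and Cd163 moves by -1.5 on this scale.

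Levels between genes were compared as CPM per kilobase of exon. In chow the order was C1qa (70.4 ± 25.4, SD, n = 16), Clec4f (53.0 ± 19.7), C1qb (49.3 ± 17.7), Cd5l (30.5 ± 13.7), C1qc (26.7 ± 10.3), Vsig4 (14.8 ± 6.34), Csf1r (7.54 ± 2.28), Marco (6.27 ± 3.46), Timd4 (3.03 ± 1.08) and Cd163 (2.52 ± 1.21), and neighbours overlapped within their SD throughout. In cdHFD, C1qa (217 ± 35.8), C1qb (198 ± 28.9) and Cd5l (191 ± 41.3) led and overlapped one another. Clec4f (106 ± 16.7) and C1qc (105 ± 19.5) came next, then Vsig4 (42.4 ± 10.8), Marco (40.9 ± 17.8) and Csf1r (22.8 ± 2.59), and last Timd4 (4.86 ± 1.30) and Cd163 (2.74 ± 1.12). Clec4f, in the second place in chow, was in the fourth place in cdHFD.

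With the mean of each group and a sex difference common to both diets removed, the 10 genes still varied together from library to library. All 45 pairs had a Pearson r above 0 over the 32 libraries, from 0.369 for Marco with Cd163 to 0.950 for C1qb with Csf1r, with a median of 0.722. These values describe libraries that share depth and scaling, and the low chow ZT8 replicate 1 is among them. The change of the sex difference with diet, below 0 for all 10 genes, was not removed and is part of these values. Against the mean of the other 9, Cd5l ranked 1 of 17844 genes, C1qc 2, C1qb 4, Csf1r 5, Clec4f 8, C1qa 15, Timd4 31, Marco 74, Vsig4 103 and Cd163 214.

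The same residuals, with the change of the sex difference left in, were compared with those of genes outside the group. Among the 10 genes outside the group whose residuals were most like its mean, over the same 32 libraries, were Il18bp (r = 0.924), Sdc3 (0.924), Gfra2 (0.904), Cd68 (0.888), Fcna (0.875), Laptm5 (0.874), Hcls1 (0.870), Wfdc17 (0.865) and Treml4 (0.858). Il18bp encodes the protein that binds interleukin 18 and Cd68 a lysosomal protein of macrophages. In cdHFD 8 of these 9 were called higher, from 1.40 for Wfdc17 to 2.80 for Cd68. Fcna, ficolin A of Kupffer cells, stood at 51.2 ± 15.99 CPM in chow and 47.7 ± 8.25 CPM in cdHFD (log2 -0.04 ± 0.13; adjusted p = 0.771), and was called higher under total counts alone with 0.53.

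Of 15 other Kupffer cell genes 11 were higher and 2 lower in cdHFD, with 12 and 1 under total counts alone. Clec1b, a lectin receptor, went from 7.98 ± 2.29 to 32.5 ± 5.88 CPM (log2 2.05; adjusted p = 2.74e-16), and Folr2, a folate receptor, from 1.53 ± 0.894 to 4.42 ± 1.56 CPM (1.71; adjusted p = 3.72e-08). Of the 1546 exonic bases of Folr2, 975 overlap Gm10602 on the other strand, so its counts are uncertain; the overlap is 184 bases for Clec1b. Hpgd, which breaks down prostaglandins, and Paqr9 were lower, with -0.55 (adjusted p = 0.00383) and -1.03 (adjusted p = 2.39e-08), and the sign of Hpgd turned to 0.02 under total counts alone. Of 13 transcription regulators of Kupffer cells 10 were higher and 1 lower, with 13 and 0 under total counts alone. Spi1, the gene of PU.1, went from 10.1 ± 3.69 to 55.6 ± 10.2 CPM (2.52; adjusted p = 1.84e-15) and Spic from 2.73 ± 1.20 to 7.49 ± 1.13 CPM (1.51; adjusted p = 1.68e-10). Id3 stood at 0.07 (adjusted p = 0.73), and Nr1h3, the gene of LXR alpha, at -0.18 (adjusted p = 0.00881), a sign that turned to 0.39 under total counts alone.

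Beside the Kupffer cell genes, all 15 macrophage-wide genes were higher in cdHFD, with a median of 2.39. Adgre1 went from 5.83 ± 2.78 to 23.0 ± 8.06 CPM (2.07; adjusted p = 1.26e-09), Lyz2, a lysozyme, from 64.2 ± 27.3 to 410 ± 118 CPM (2.74; adjusted p = 3.11e-13), and Mertk, a receptor for dying cells, was higher by 0.69 (adjusted p = 9.4e-08). Recruited monocyte markers rose in 8 of 8, with a median of 2.93. Their summed level ran from 7.75 to 22.1 CPM in chow and from 60.4 to 146 CPM in cdHFD, without overlap and with none of the 8 at 0 in all libraries of a diet. Ccr2, the chemokine receptor of monocytes, went from 1.82 ± 0.666 to 13.8 ± 5.12 CPM (2.91; adjusted p = 4.24e-15) and Ly6c2 from 0.627 ± 0.230 to 2.79 ± 1.01 CPM (2.12; adjusted p = 2.6e-11). Of 12 genes of lipid-associated macrophages 10 were higher and 2 lower, the latter being the fatty acid carrier Fabp5 (-1.21; adjusted p = 8.44e-05) and the lipoprotein gene Apoe (-0.61; adjusted p = 1.13e-06). Under total counts alone 10 were higher and 1 lower, and Apoe stood at -0.04 (edgeR, adjusted p = 0.635). Trem2, a receptor of lipid-associated macrophages, went from 1.03 ± 0.445 to 44.2 ± 6.32 CPM (5.45; adjusted p = 9.66e-22). The part of monocytes or of macrophages derived from them in the levels of Marco, Csf1r and the C1q genes was not tested.

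Sinusoidal endothelium markers, which share the sinusoid with Kupffer cells, ran in sum from 137 to 287 CPM in chow and from 133 to 252 CPM in cdHFD, with 2 of 8 higher and 4 lower. Under total counts alone 7 were higher and 0 lower. Hepatocyte markers were lower in 6 of 6 under either scaling, with Alb, the gene of albumin, at -1.31. Of all genes tested 31.2% were called lower with TMM scaling and 9.14% under total counts alone. A list of C1q partners, among them factors of the classical pathway that hepatocytes make in large amount, had 1 gene higher and 7 lower of 11 tested. The gene called higher was Cd93 (1.72). C1ra and C1s1, the proteases that C1q carries, stood at -0.55 (adjusted p = 3.91e-09) and -0.50 (adjusted p = 9.5e-08), and Serping1, their inhibitor, at -1.09 (adjusted p = 1.13e-12), while C1qb rose by 2.09. Of the C1s1 exons 576 bases overlap another annotated gene, Gm16567, so its counts are uncertain. Under total counts alone 6 of the 11 were higher and 2 lower, and C1ra and C1s1 turned to 0.02 and 0.07.

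**Figure D5:**
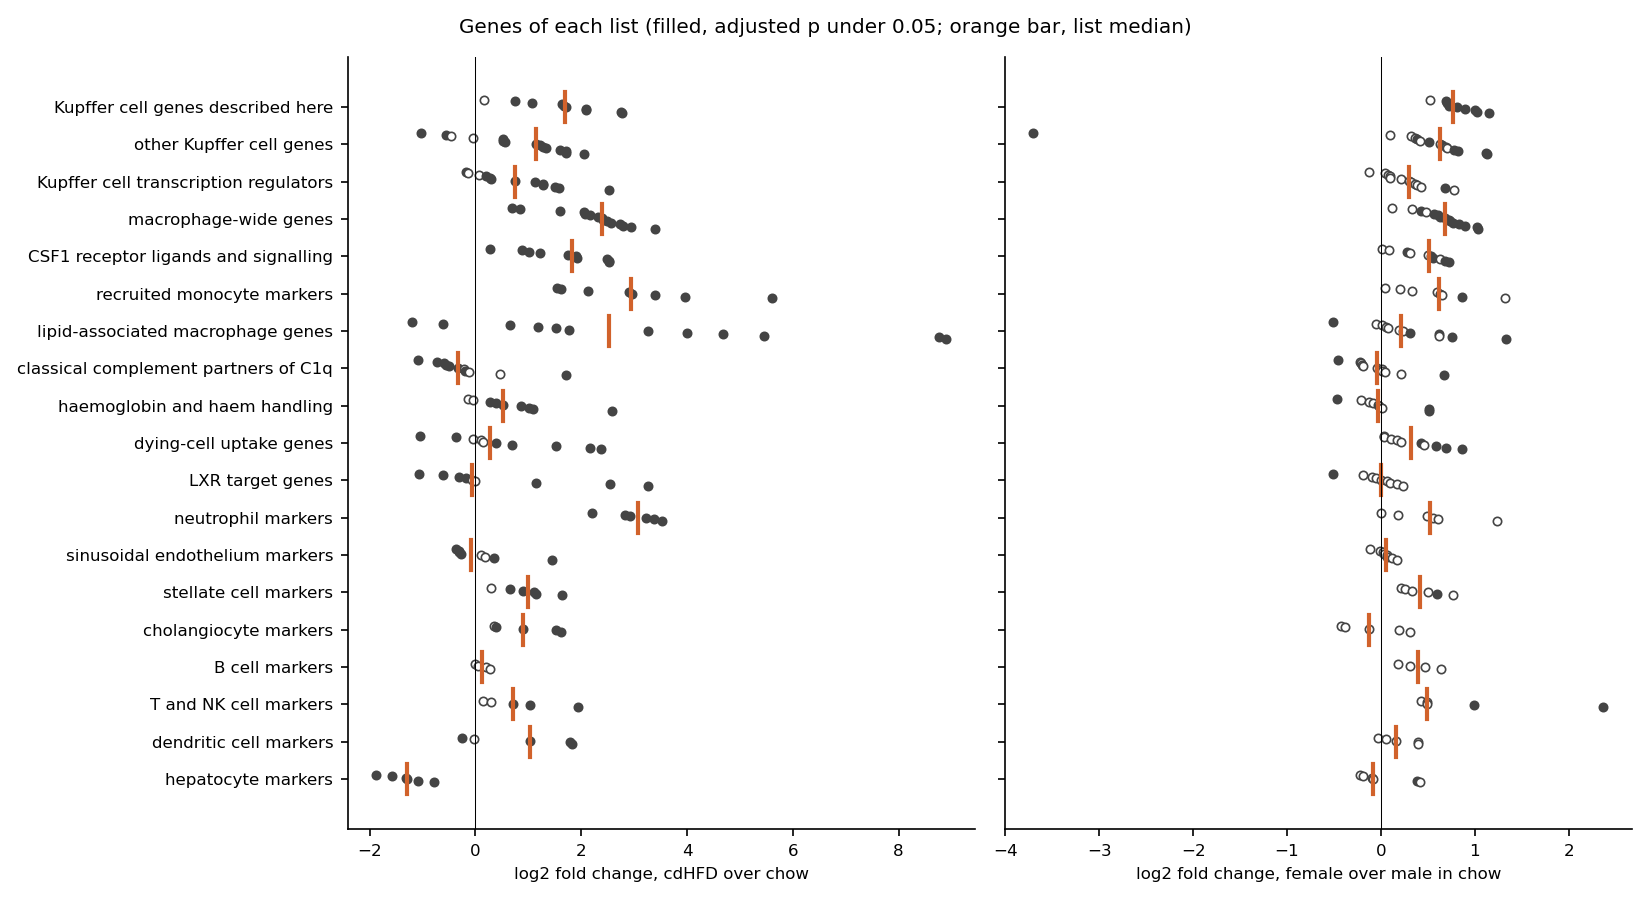
Log2 fold change of each tested gene in the 10 Kupffer cell genes and 18 companion lists, for cdHFD over chow (left) and for female over male in chow (right), filled where the adjusted p is below 0.05, with list medians as orange bars. The Kupffer cell genes have medians of 1.68 and 0.77, macrophage-wide genes 2.39 and 0.68, and sinusoidal endothelium markers -0.08 and 0.05.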

How the data were processed

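RNA was sequenced as 32 poly(A)-selected, non-directional libraries of mouse liver, with a RIN above 6.5 per the labels' protocols. The authors deposited raw read counts per gene; HISAT2, featureCounts, DESeq2 and the build GRCm38 (mm10) are named in the submitters' processing notes, without versions in the sources used here. The 10 genes and the companion lists were chosen with earlier results of these data known, and named genes are the 10 genes, the listed genes and the 10 most alike in residuals; 3 of these are not reported by name here.

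Counts were fitted with edgeR 4.0.16 (R 4.3.3; quasi-likelihood, robust, TMM factors, filterByExpr, 17853 genes, Benjamini-Hochberg adjustment, threshold 0.05) in 3 models: group and sex, 24 h cosine and sine within diet, and sex within diet. SEs come from a linear model of log2 CPM (prior count 2), a separate estimate. Ratios used a pseudocount of 0.5 and two-sided permutation tests with 100000 resamples. The scripts were tested on simulated data. Replicate numbers did not pair the libraries. Gene positions and exon lengths are from GENCODE on GRCm38. Alternatives were total counts alone, relative log expression scaling, DESeq2 1.42.0, no filter, a replicate block, a pseudocount of 5, any difference between times, and each library left out. Labelled sex matched the sex-linked genes Xist and Ddx3y in all 32 libraries.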

Additional observations from a re-analysis of the deposited data

Results flagged for a closer look

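Of 80 groups of 4 libraries, a single library stood far from the other 3 in 6, and chance flags about 1 in 20 groups. In chow ZT8 replicate 1, C1qa was at 17.9 CPM against 77.3 to 79.1 CPM in the other libraries of its group, C1qb at 14.8 against 61 to 69.3 CPM, and C1qc at 15.4 against 59.9 to 66.3 CPM. In chow ZT20 replicate 4, a female, Timd4 was at 8.17 CPM against 3.74 to 4.45 CPM and Marco at 30.3 CPM against 6.24 to 9.44 CPM. In cdHFD ZT2 replicate 4, also a female, Cd5l was at 278 CPM against 484 to 510 CPM.

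The female to male difference changed from chow to cdHFD by -2.11 on the log2 scale for Marco and by -1.08 for Cd5l, each by a test of the change itself (edgeR, adjusted p = 0.000211 and 0.0178).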

How the results depend on the processing

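DESeq2 and relative log expression scaling left each count of genes called within 1.5 times its value. No pairing by replicate number was found: with group means removed, 12 of 16 same-numbered pairs correlated above 0.1, and with sex also removed 1 did. A replicate block in place of sex gave 9 genes for diet, 9, 8, 9 and 9 at the 4 times, and 0 for rhythm or diet by time, and changed no count. Genes rhythmic in chow went from 0 to 1 under any difference between times and without the low-count filter, and those rhythmic in cdHFD from 0 to 1 without the filter. Genes whose sex difference changed with diet went from 2 to 6 without the filter. With 1 library left out, counts ran from 9 to 9 for diet, 7 to 9 at ZT2, 8 to 8 at ZT8, 8 to 9 at ZT14, 9 to 9 at ZT20, 9 to 10 for sex in chow, 0 to 1 for sex in cdHFD, 2 to 6 for its change and 13 to 14 for ratios. The cause was not tested in any of these.

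Under total counts alone the diet difference changed sign to 0.019 for Hpgd, 0.39 for Nr1h3, 0.43 for Blvrb, 0.53 for Ftl1, 0.20 for Lrp1, 0.21 for Kdr, 0.25 for Ptprb, 0.32 for Zbtb46, 0.55 for Xcr1, 0.021 for C1ra, 0.073 for C1s1, 0.36 for C3 and 0.53 for Fcna. With 1 library left out, diet values crossed 0 for C1rb (-0.19 to 0.64), Cd79a (-0.045 to 0.14), Xcr1 (-0.16 to 0.054) and Id3 (-0.0021 to 0.14), none of them called. Cd163 crossed 0 at ZT2 (-0.12 to 0.20), ZT8 (-0.016 to 0.60) and ZT20 (-0.049 to 0.31). The female to male value in cdHFD crossed 0 for Cd163 (-0.26 to 0.016), Cd5l (-0.14 to 0.041) and Timd4 (-0.036 to 0.14), and so did the ratio to Adgre1 of C1qb (-0.0055 to 0.17) and C1qc (-0.010 to 0.11).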
